A study of Homo sapiens with 6 samples.

Results

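Regulators and feedback genes of the integrated stress response were compared in 3 cell variants of the established colon adenocarcinoma line HT-29, which is human. The 10 genes were listed by name as members of the pathway, with no threshold on their values: ATF4, ATF3, DDIT3 (which encodes CHOP), TRIB3, CHAC1, PPP1R15A (which encodes GADD34), CEBPB, CEBPG, NUPR1 and SESN2. Earlier results of these data were known when the genes were chosen, so the choice was not independent of their values. The members are 10 of the 19775 genes that the array's annotation names with a probe set of their own, and all 10 were among the 10370 genes with enough signal to be tested. The 3 cell variants were BR200, BR100 and wild type, each measured on 2 arrays. The 3' IVT Express kit labelled 100 ng of RNA for 1 of them, and the One-Cycle kit labelled 3 ug for the other. According to the treatment notes, HT-29 cells were kept in the proteasome inhibitor bortezomib at doses raised from 20 to 300 nM during 7 months, and clonal isolates were then grown out by limiting dilution in 100 or 300 nM for another 4 months. BR200 and BR100 are therefore each taken here as a clone of 1 line. These notes are attached to all 6 samples, wild type among them, and they do not state the dose at which BR200 was isolated, how wild type cells were treated, or whether drug was in the medium when RNA was taken. Nothing in the labels places the 2 arrays of a variant in separate cultures. With the kit as a term, the p-values below measure only how far differences between variants disagree between the 2 kits. That disagreement may be technical.

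In the integrated stress response, kinases that sense endoplasmic reticulum stress, amino acid shortage, viral RNA or haem shortage phosphorylate the translation factor eIF2, which slows protein synthesis while ATF4 mRNA is translated more. ATF4 is a basic leucine zipper (bZIP) transcription factor that activates genes of amino acid supply and redox balance together with further regulators, among them CHOP and ATF3, and GADD34 closes the loop by bringing a phosphatase to eIF2. Proteasome inhibitors are known inducers of this response. ATF4 is controlled to a large extent at translation, so its mRNA level is not a measure of its protein.

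The promoters of the genes were searched for the letters to which these factors are known to bind, because the results turn on which members move together and which stand apart. RefSeq windows of GRCh38.p14, covering 250 bases before to 50 bases after each annotated start, were held for 9 of the 10 genes in 16 windows, and NUPR1 had none in the table. Both strands were searched for TGATGNAA, the core of the C/EBP-ATF response element that ATF4 and C/EBP proteins bind as a pair, for TGACGTCA, the cyclic AMP response element palindrome of ATF and CREB proteins, and for TGANTCA, the AP-1 site of FOS and JUN proteins. None of the printed matches is shared by 2 of the motifs, and each gene with a match held 1 of the 3 kinds. Of 35116 windows in the table, 3.62% held the first motif, 1.85% the second and 7.71% the third. Of the 16 windows of the members, 3 held the first, 1 the second and 2 the third. In the lines below, the matching letters are in capitals, and each stretch runs 5′ to 3′ along the strand of the gene. ATF3 (chr1:212565166-212565273, plus strand), CHAC1 (chr15:40953221-40953319, plus strand, with the motif on the opposite strand) and CEBPG (chr19:33374060-33374089, plus strand) are shown for the first motif.
ATF3: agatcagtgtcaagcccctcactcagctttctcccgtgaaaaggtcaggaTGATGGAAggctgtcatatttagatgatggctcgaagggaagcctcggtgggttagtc
CHAC1: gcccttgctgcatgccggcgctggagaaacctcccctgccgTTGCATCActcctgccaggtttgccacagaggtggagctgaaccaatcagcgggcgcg
CEBPG: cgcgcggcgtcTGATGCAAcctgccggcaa
PPP1R15A (chr19:48872313-48872420, plus strand) is shown for the second motif and DDIT3 (chr12:57520699-57520764, minus strand) for the third.
PPP1R15A: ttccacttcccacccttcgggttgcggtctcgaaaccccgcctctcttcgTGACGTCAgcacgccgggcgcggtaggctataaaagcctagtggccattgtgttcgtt
DDIT3: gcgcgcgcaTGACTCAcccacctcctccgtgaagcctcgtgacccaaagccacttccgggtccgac
A match is a description of these letters and not a binding site. Counted from the annotated start of the printed window, where negative positions lie before it, the match began at −191 in ATF3, −209 in CHAC1, −42 in CEBPG, −58 in PPP1R15A and −241 in DDIT3. The 9 genes had 16 such windows, so a gene can have other starts. From another DDIT3 start the same letters began at −238, and the CEBPG window lies downstream of another of its starts. The windows of ATF4, TRIB3, CEBPB and SESN2 held none of the 3.

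All levels are log2 values made by GCRMA, which corrects an array for background and puts arrays on 1 scale, so a difference of 1 is a doubling. The lowest value of an array was 2.23, held by 34.9% to 35.3% of probe sets, and where neither array of a variant reached 4 the gene is described as near background in that variant. Between 10042 and 10153 of the tested genes reached 4 on an array. The gap between 3′ and 5′ probe sets of ACTB, a sign of RNA integrity and labelling, was 3.24 (Express) and 1.76 (One-Cycle) in BR200, 3.03 and 1.86 in BR100, and 4.22 and 3.00 in wild type. For GAPDH the gap was 0.204 and 0.176 in BR200, 0.224 and 0.155 in BR100, and 0.483 and 0.396 in wild type. Within each kit both gaps were largest in wild type, the reference of most comparisons. Their part in the results was not tested. Among 13 colon epithelial markers 8 or 9 reached 4 on each array, with a summed log2 level of 111.55 to 113.69 on the resistant arrays and 121.60 to 123.49 on the wild type arrays. EPCAM, CDH1, KRT8, KRT18, KRT19 and KRT20 were high in every variant, with means from 13.40 (CDH1 in BR100) to 15.42 (KRT18 in BR200). CDX2, CDH17 and GPA33, which mark intestinal epithelium, were at the lowest value on all 6 arrays. CDX1 was near background everywhere, and TFF3 was above 4 only on the wild type Express array. LGALS4 (−5.56 in BR200 and −5.99 in BR100) and VIL1 (−1.75 and −1.85) were lower in the resistant variants than in wild type. On each array 1 of 6 fibroblast markers (COL1A1), 2 of 5 blood cell markers (CD14 and LYZ) and 0 of 4 endothelial markers reached 4. Because cells were lysed in bulk, fewer cells of a state and less RNA per cell cannot be told apart.

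Most of the 10 stress regulators were lower in both resistant variants than in wild type. In BR200 9 of them fell and ATF3 did not pass the test, and in BR100 all 10 fell. Comparisons used limma with variant and labelling kit as terms, and a change was called where the Benjamini-Hochberg adjusted p, taken over the 10370 genes, was below 0.05. The background was broad: 66.5% of tested genes changed in BR200 (35.4% rose and 31.2% fell) and 68.5% in BR100 (36.7% rose and 31.8% fell). A call alone was therefore common here. The median log2 change of the 10 was −3.52 in BR200 and −3.76 in BR100, against 0.04 in each variant over all tested genes. Both comparisons use the same wild type arrays.

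**Figure D1:**
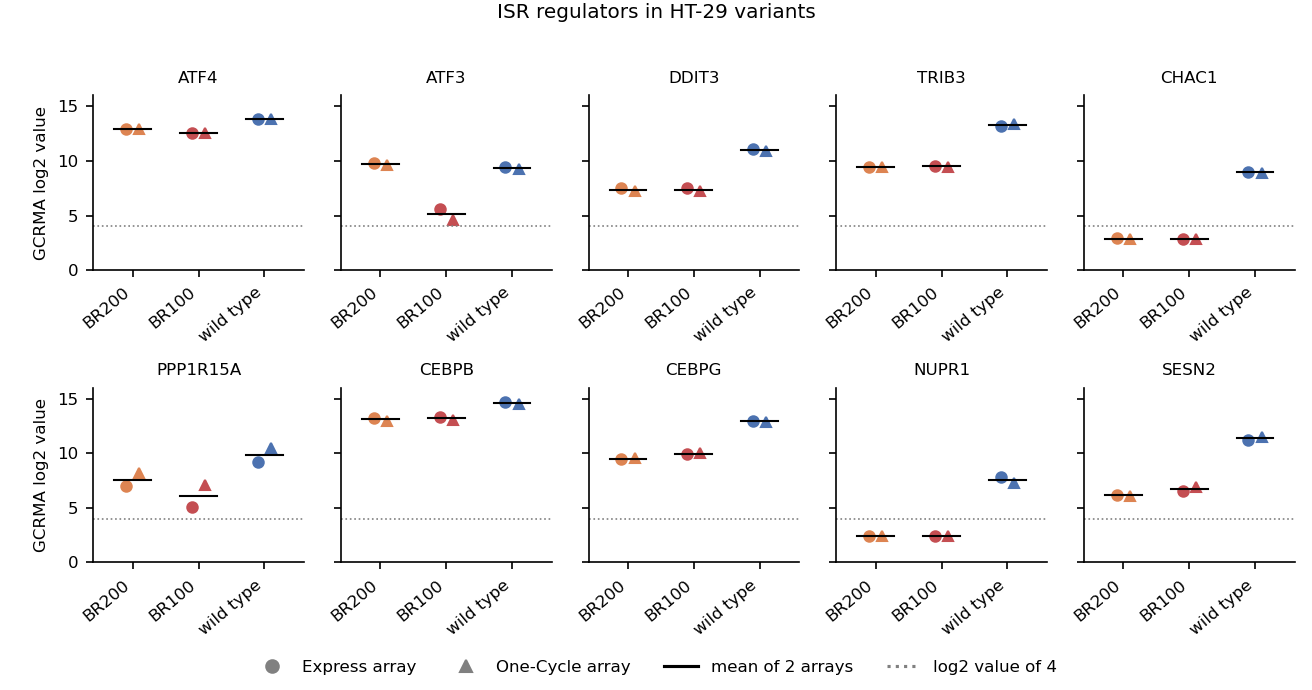
Log2 level (GCRMA) of each of the 10 stress regulators in BR200, BR100 and wild type, with circles for Express arrays, triangles for One-Cycle arrays, black bars for the mean of 2 arrays and a dotted line at the log2 value of 4. ATF3 is low in BR100 only, CHAC1 and NUPR1 lie under the line in both resistant variants, and PPP1R15A has its arrays well apart in every variant.

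ATF4, the factor that gives the response its transcriptional output, had the smallest change among the called members in both comparisons. Its probe set (200779_at, gene on chromosome 22) read 12.95 and 12.88 on the BR200 Express and One-Cycle arrays, 12.57 and 12.56 on the BR100 arrays, and 13.80 and 13.84 on the wild type arrays. All 4 resistant arrays lay below both wild type arrays. The level was 1.87-fold lower in BR200 (log2 change −0.91, SE 0.0689, limma adjusted p = 0.000719) and 2.39-fold lower in BR100 (−1.26, SE 0.0689, adjusted p = 0.000308). ATF4 was thus lowest in BR100, with BR200 between, although the step from BR100 to BR200 narrowly missed the threshold (0.35, 95% interval 0.17 to 0.54, adjusted p = 0.051).

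CHOP, the bZIP factor that ATF4 induces and that can turn a prolonged response toward cell death, differed between the resistant variants by less than the spread between their arrays. DDIT3 (209383_at, chromosome 12) read 7.54 and 7.21 in BR200, 7.48 and 7.23 in BR100, and 11.08 and 10.93 in wild type. The 4 resistant arrays sat within a narrow band that did not reach wild type. The fold was 12.4 in BR200 (log2 change −3.63, SE 0.0762, adjusted p = 8.06e-05) and 12.6 in BR100 (−3.65, SE 0.0762, adjusted p = 6.99e-05), both lower. The difference between BR200 and BR100 was 0.02 with a 95% interval of −0.18 to 0.23.

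ATF3, a bZIP repressor and activator that ATF4 and many immediate-early signals induce, departed from this pattern. ATF3 (202672_s_at, chromosome 1) read 9.78 and 9.58 in BR200, 5.61 and 4.63 in BR100, and 9.42 and 9.28 in wild type. The BR100 arrays stood far below the other 4, and both BR200 arrays lay slightly above both wild type arrays. In BR100 the level was 18.8-fold lower than in wild type (a log2 difference of −4.23, SE 0.235, limma adjusted p = 0.000316), −3.81 in the Express pair and −4.65 in the One-Cycle pair. In BR200 the difference from wild type was 0.33 (95% interval −0.30 to 0.96, adjusted p = 0.275), 0.35 within Express and 0.30 within One-Cycle. The interval spans 0, and with either BR100 array left out the same difference of 0.33 was called (adjusted p = 0.0341). Its other probe sets were too dim to be tested: 1554980_a_at read 3.71 and 3.92 in BR200, 2.67 and 2.57 in BR100, and 3.93 and 3.43 in wild type, while 1554420_at was at the lowest value everywhere except 4.79 on the BR200 One-Cycle array. With the 3 probe sets averaged, the change of BR100 from wild type was −1.76, still called.

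The C/EBP partners of ATF4 also fell, CEBPB little and CEBPG much. CEBPB, a bZIP factor that pairs with ATF4 and CHOP, fell by similar amounts in both variants. Its probe set (212501_at, chromosome 20) read 13.19 and 12.98 in BR200, 13.32 and 13.03 in BR100, and 14.66 and 14.55 in wild type. It was 2.86-fold lower in BR200 (−1.52, SE 0.0763, adjusted p = 0.000286) and 2.69-fold lower in BR100 (−1.43, SE 0.0763, adjusted p = 0.000288).

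CEBPG, the C/EBP form that pairs with ATF4 at amino acid response genes, read 9.48 and 9.54 in BR200, 9.90 and 9.99 in BR100, and 12.94 and 12.90 in wild type (225527_at, chromosome 19). The 3 variants formed 3 separate levels with little spread between arrays. The level was 10.6-fold lower in BR200 (log2 change −3.41, SE 0.0716, adjusted p = 8.06e-05) and 7.85-fold lower in BR100 (−2.97, SE 0.0716, adjusted p = 7.93e-05). A further CEBPG probe set, 204203_at, read 9.64 and 8.87 in BR200, 9.88 and 9.19 in BR100, and 11.98 and 11.68 in wild type, the same order with a smaller fall.

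TRIB3, a pseudokinase that ATF4 and CHOP induce and that restrains ATF4 and AKT signalling, fell by nearly the same amount as CHOP in both variants. It read 9.45 and 9.42 in BR200, 9.53 and 9.47 in BR100, and 13.20 and 13.33 in wild type (218145_at, chromosome 20). The fall was 14.2-fold in BR200 (−3.83, SE 0.0802, adjusted p = 8.06e-05) and 13.6-fold in BR100 (−3.76, SE 0.0802, adjusted p = 7.04e-05). The other TRIB3 probe set, 1555788_a_at, read 5.40 and 5.74 in BR200, 5.32 and 5.86 in BR100, and 8.76 and 10.13 in wild type. Its changes of −3.87 and −3.86 were alike in BR200 and BR100, although its wild type arrays differed between kits.

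CHAC1, which degrades glutathione and is a sensitive readout of ATF4, ended near background in both resistant variants. It read 2.91 and 2.81 in BR200, 2.87 and 2.81 in BR100, and 9.02 and 8.92 in wild type (219270_at, chromosome 15). Measured against the log2 value of 4, wild type was at least 31.4-fold higher than either resistant variant. The fitted changes of −6.11 in BR200 (SE 0.0647, adjusted p = 3.96e-05) and −6.13 in BR100 (adjusted p = 3.98e-05) depend on the background estimate.

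NUPR1, a small stress-induced chromatin protein that acts downstream of ATF4, was near background on all 4 resistant arrays at the single value of 2.46, against 7.82 and 7.27 in wild type (209230_s_at, chromosome 16). Its level in wild type was at least 11.7-fold above the log2 value of 4. The fitted change was −5.08 in both resistant variants (SE 0.163, adjusted p = 0.000152 in BR200 and 0.000121 in BR100). Equal values on 4 arrays are a floor of the background correction, so they give no order between BR200 and BR100.

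SESN2, a sestrin that senses leucine and restrains the growth kinase complex mTORC1, had the largest fall among the members that stayed measurable. It read 6.21 and 6.06 in BR200, 6.57 and 6.90 in BR100, and 11.18 and 11.52 in wild type (223195_s_at, chromosome 1). The level was 37.1-fold lower in BR200 (−5.21, SE 0.145, adjusted p = 0.00013) and 24.5-fold lower in BR100 (−4.62, SE 0.145, adjusted p = 0.00012). Both BR200 arrays were below both BR100 arrays. The other probe set, 223196_s_at, gave 3.52 and 3.14 in BR200, 4.27 and 3.38 in BR100, and 8.97 and 8.49 in wild type, near background in BR200, with a change of −4.91 in BR100.

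PPP1R15A, the stress-induced regulatory subunit that directs protein phosphatase 1 to eIF2, fell in both variants but less in BR200. It read 6.97 and 8.16 in BR200, 5.09 and 7.07 in BR100, and 9.20 and 10.48 in wild type (37028_at, chromosome 19). The One-Cycle array was higher than the Express array in every variant, by 1.19 in BR200, 1.98 in BR100 and 1.27 in wild type, so its level depends on the kit more than that of any other member. Within a kit the order was the same, with BR100 lowest and wild type highest. The level was 4.85-fold lower in BR200 than in wild type (−2.28, SE 0.218, adjusted p = 0.00131, −2.24 in the Express pair and −2.32 in the One-Cycle pair) and 13.5-fold lower in BR100 (−3.76, SE 0.218, adjusted p = 0.000349, −4.11 and −3.41). The other probe set, 202014_at, read 5.74 and 6.99 in BR200, 5.41 and 5.92 in BR100, and 8.01 and 9.45 in wild type, the same order with a smaller gap between the resistant variants. Without the kit term PPP1R15A was not called in BR200 against wild type (adjusted p = 0.0981).

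**Figure D2:**
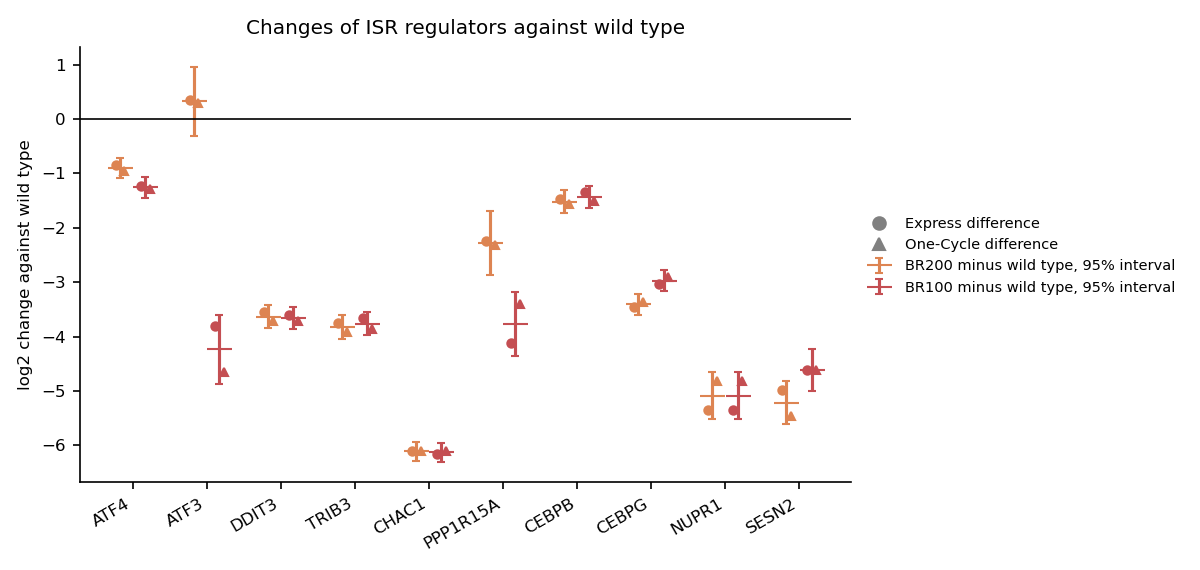
Log2 change of each stress regulator against wild type in BR200 (orange, left of each pair) and BR100 (red, right), with the limma estimate and its 95% interval as a bar, the Express difference as a circle and the One-Cycle difference as a triangle. Only the ATF3 bar of BR200 crosses 0, at 0.33, and the kits agree in direction for every member in both variants.

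The differences between the resistant variants were far fewer than those from wild type. Over all 10370 genes 10.6% passed between BR200 and BR100 (6.39% higher and 4.23% lower in BR200), and among the 10 members 2 were higher, 1 was lower and 7 did not pass. The median difference of the members was 0.01, against −0.01 for all tested genes. ATF3 was 23.6-fold higher in BR200 than in BR100 (log2 difference 4.56, SE 0.235, 95% interval 3.93 to 5.19, limma adjusted p = 0.00525), by 4.17 within Express and 4.95 within One-Cycle. That was the largest difference of any of the 10370 genes between these variants, in rise and in size, for the brightest ATF3 probe set. With the probe sets of each gene averaged it was 2.34 (adjusted p = 0.0258) and ranked 17 of 9598. PPP1R15A was 2.79-fold higher in BR200 (1.48, SE 0.218, 95% interval 0.89 to 2.07, adjusted p = 0.0322), by 1.88 within Express and 1.09 within One-Cycle, and ranked 105 by rise. CEBPG was lower in BR200 (−0.44, SE 0.0716, 95% interval −0.63 to −0.24, adjusted p = 0.0392). SESN2 at −0.60 (95% interval −0.99 to −0.21, adjusted p = 0.0748) did not pass. The remaining members lay near 0: TRIB3 at −0.07 (95% interval −0.28 to 0.15), CEBPB at −0.09 (−0.30 to 0.12), CHAC1 at 0.02 (−0.15 to 0.20) and NUPR1 at 0.00 (−0.44 to 0.44), the last 2 both near background.

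These 3 calls rest on few arrays. None of them held once any 1 of the 6 arrays was left out, where ATF3 was still at 4.15 to 4.97. Few or no genes of the whole array passed then, so this loss does not single out these members. ATF3 also lost its call with no filter on dim genes (limma adjusted p = 0.102). PPP1R15A lost its call without the kit term (adjusted p = 0.621), with no filter (adjusted p = 0.237) and on its other probe set (0.69, adjusted p = 0.185). With its probe sets averaged PPP1R15A kept its call at a smaller difference (1.09, limma adjusted p = 0.00568). CEBPG lost its call without the kit term (adjusted p = 0.174), with no filter (adjusted p = 0.138) and with its probe sets averaged (adjusted p = 0.0588). Neither CEBPG probe set passed when tested singly (adjusted p = 0.0627 for 225527_at, and −0.27 with adjusted p = 0.313 for 204203_at).

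**Figure D3:**
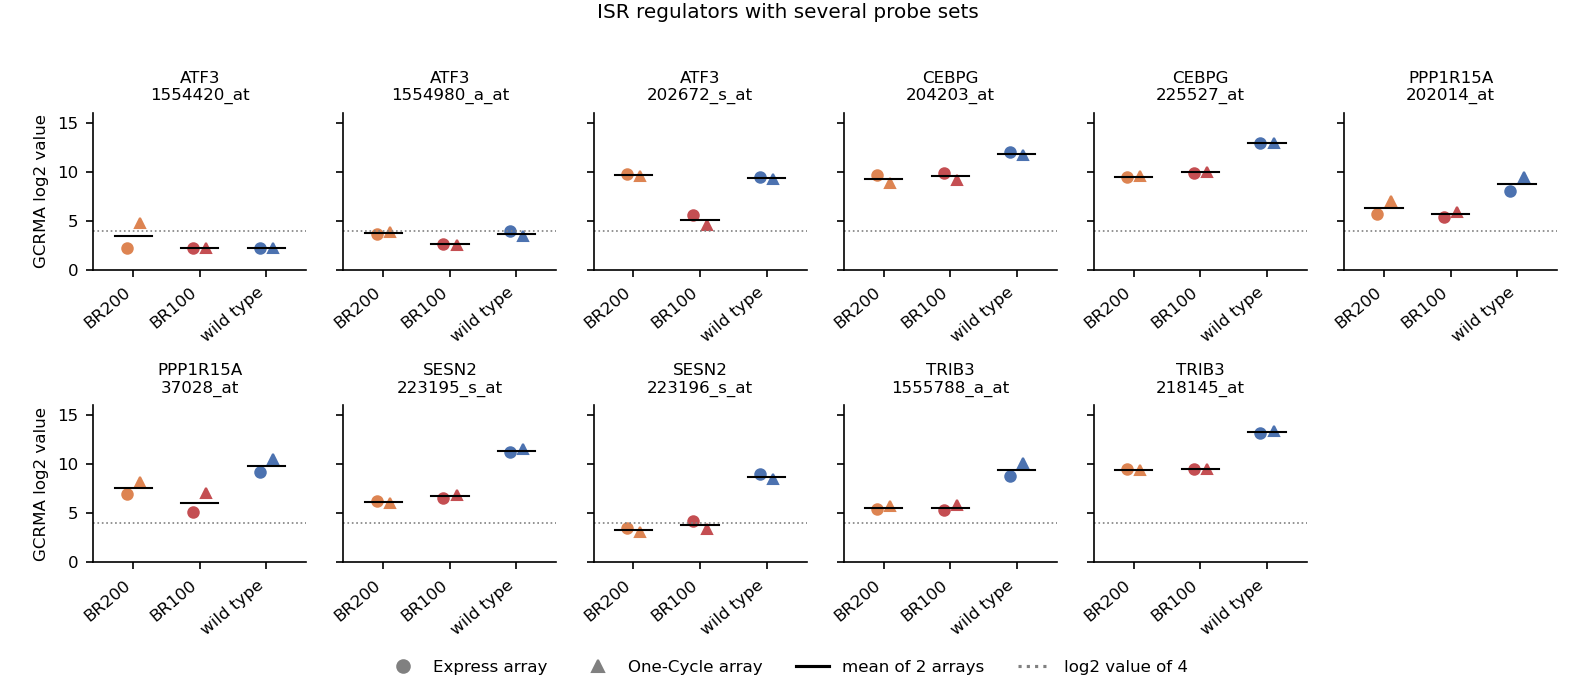
Log2 level (GCRMA) of every probe set that names only ATF3, PPP1R15A, CEBPG, SESN2 or TRIB3, in BR200, BR100 and wild type, with symbols as for the plot of levels by gene. The other ATF3 probe sets stay at or under 4.79, whereas both PPP1R15A probe sets fall in the order wild type, BR200, BR100 within each kit.

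Single probe sets gave the same picture against wild type. Of 16 probe sets that name a member alone, 14 passed the filter, and 13 were lower in BR200 while all 14 were lower in BR100 (59.6% and 62.8% of the 19055 probe sets tested singly changed). Between BR200 and BR100, 2 probe sets passed, those of ATF3 at 202672_s_at and PPP1R15A at 37028_at, against 5.7% of all.

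The scatter of changes shows where the members lie among all genes. ATF3 lies far off the line of equal change, and DDIT3, TRIB3, CHAC1 and NUPR1 lie on it. CHAC1 and NUPR1 were near background in both resistant variants, so their place on the line follows from the floor.

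**Figure D4:**
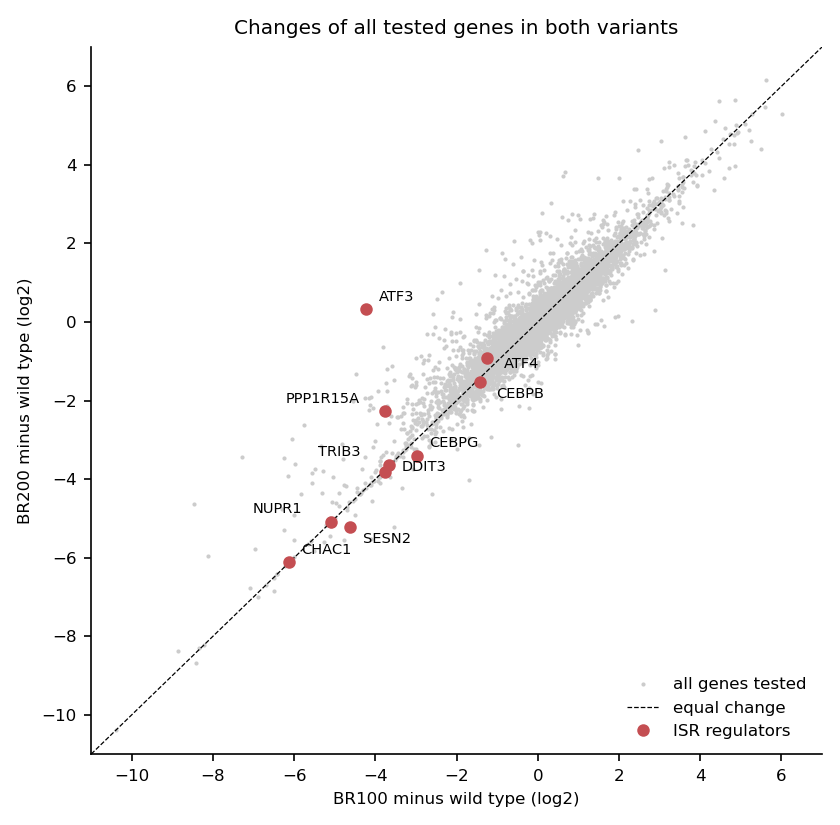
Log2 change of all 10370 tested genes in BR100 minus wild type (x axis) and BR200 minus wild type (y axis), with the 10 stress regulators in red and the dashed line at equal change. Both axes use the same wild type arrays; ATF3 sits above the line at 0.33 for BR200 and −4.23 for BR100, and PPP1R15A at −2.28 and −3.76.

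The genes whose 4 within-kit changes lay nearest to those of ATF3, by Euclidean distance among 10369 genes, were CCN2 (distance 1.77), IFI35 (2.30) and YPEL3 (2.37). All 3 were far from it compared with the neighbours of the others. PPP1R15A lay nearest to TXNIP (0.480), TMEM133 (0.517) and ISG20 (0.661), and DDIT3 to NWD2 (0.124), CTH (0.134) and BCL11B (0.183). The distance describes likeness of values alone over these 4 differences.

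Known ATF4 target genes were lower in the resistant variants. Of 45 listed, 36 were tested, and 35 fell in BR200 and 35 in BR100, with none higher (medians −2.09 and −2.24). That is 97.2% called lower in each, against 31.2% of all tested genes in BR200 and 31.8% in BR100. This list, like the members, was chosen with earlier results of these data known. In either direction 66.5% and 68.5% of all tested genes were called. The exceptions, picked out after their values were seen, were KLHL24 in BR200 (−0.32, adjusted p = 0.131) and ALDH18A1 in BR100 (−0.17, adjusted p = 0.117). LAMP3, a lysosomal membrane protein, CLGN, a chaperone of the endoplasmic reticulum, and INHBE, a secreted inhibin subunit, were near background in both resistant variants. Measured against the log2 value of 4, LAMP3 was at least 185-fold, CLGN at least 95.5-fold and INHBE at least 38.8-fold higher in wild type than in either of them. FGF19, a hormone of bile acid control, changed by −5.78 in BR200 and was near background in BR100, where wild type was at least 81.1-fold higher. DDIT4, which inhibits mTORC1 signalling, stayed measurable and changed by −5.52 in BR200 and −4.10 in BR100, a gene picked out here after its values were seen. Between BR200 and BR100, 3 targets were higher and 2 lower, 13.9% of the list against 10.6% of all tested genes. DDIT4 was at −1.42, GDF15, a stress hormone, at 0.94, PHGDH of serine synthesis at −0.49 and the cystine transporter SLC7A11 at 0.47. Most calls of this list between BR200 and BR100 were lost with any 1 array left out, as were nearly all calls of the array.

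Most of the tested genes reported as CHOP targets fell. Of 9 tested of 12, 6 fell and 1 was higher in each resistant variant (medians −0.80 in BR200 and −1.01 in BR100). That is 77.8% called in either direction in each, against 66.5% and 68.5% of all tested genes. Called lower were 31.2% of all tested genes in BR200 and 31.8% in BR100. DNAJB9, a chaperone of the endoplasmic reticulum, changed by −2.80 in BR200 and −2.50 in BR100, TNFRSF10B, a death receptor, by −2.59 and −2.51, and TXNIP, a redox regulator, by −2.13 and −3.71. PMAIP1, the death protein NOXA, was at −0.92 and −2.18. ERO1A, an oxidase of disulfide bond formation, was the gene that rose (0.94 and 1.03). TXNIP and PMAIP1 were higher in BR200 than in BR100 by 1.58 and 1.25, as was the growth arrest gene GADD45A by 0.62, the 3 that passed of the 9 (33.3%, against 10.6% of all tested genes). Most of these calls between BR200 and BR100 were lost with any 1 array left out, as were nearly all calls of the array.

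The machinery that acts upstream of ATF4 had members higher and members lower. Of 21 genes for eIF2 kinases, eIF2, eIF2B and their phosphatase partners, 6 rose and 10 fell in BR200 and 7 rose and 10 fell in BR100. The share called in either direction was 76.2% in BR200 and 81% in BR100, not far from the 66.5% and 68.5% of all tested genes. Over all tested genes 31.2% were called lower in BR200 and 31.8% in BR100. The kinase EIF2AK2 (PKR) changed by −1.79 in BR200 and −2.10 in BR100, EIF2AK3 (PERK) by −1.44 and −1.33, EIF2AK4 (GCN2) by −0.40 and −0.76, and EIF2AK1 (HRI) by −0.40 and −0.34. All 4 kinases passed as lower in both variants. PPP1R15B, the constitutive counterpart of PPP1R15A, was at −1.67 and −1.60, and DNAJC3, a co-chaperone that restrains PERK and PKR, at −1.57 and −1.19, while EIF2B3, a subunit of the eIF2B exchange factor, was at 1.25 and 1.40. None of the 21 passed between BR200 and BR100 by limma, and 6 had an unadjusted p under 0.05.

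Other bZIP factors that were called were mostly lower. Of 22 tested of 30, 2 rose and 14 fell in BR200 and 3 rose and 13 fell in BR100. In either direction 72.7% were called in each variant, near the 66.5% and 68.5% of all tested genes. The share called lower was larger in this list than over all tested genes, where it was 31.2% in BR200 and 31.8% in BR100. JDP2, a repressor of AP-1, changed by −3.43 in BR200 and was near background in BR100, where wild type was at least 12.2-fold higher. BATF, an AP-1 family member known from lymphocytes, changed by 2.02 in BR200 and 2.42 in BR100. Mean levels in BR200, BR100 and wild type were 10.55, 10.34 and 12.49 for MAFF and 8.31, 8.39 and 10.26 for CREB3L2. ATF5, a relative of ATF4, was at −0.20 in BR200 (adjusted p = 0.142) and 0.41 in BR100, and lower in BR200 than in BR100 by 0.61. CEBPA, a differentiation factor, was at −1.60 and −0.32, lower in BR200 than in BR100 by 1.28, and CEBPD was at −1.47 and −1.52.

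Immediate-early and AP-1 genes, which share with ATF3 a rapid induction by growth factors and stress, differed between the resistant variants in both directions, mostly upward in BR200. Of 32 tested of 36, 12 were higher and 4 lower in BR200 than in BR100, or 50% against 10.6% of all genes. CCN2, a matricellular growth factor, was 3.18 higher, KLF4, an epithelial zinc finger factor, 2.06, FOSB, a partner of JUN, 1.82 and DUSP1, a phosphatase of MAP kinases, 1.79. Most of the calls between BR200 and BR100 were lost with any 1 array left out, as were nearly all calls of the array. Against wild type, 6 rose and 15 fell in BR200 while 6 rose and 19 fell in BR100. In either direction 65.6% and 78.1% were called, against 66.5% and 68.5% of all tested genes. The share of all tested genes called lower was 31.2% in BR200 and 31.8% in BR100. CCN2 read 6.13 and 6.12 in BR200, 2.95 on both arrays in BR100, where it was near background, and 6.97 and 6.53 in wild type. BR100 was lowest for CCN2 as for ATF3, but CCN2 was lower in BR200 than in wild type while ATF3 was not.

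Close relatives of the members did not all move with them. TRIB2 rose by 2.27 in BR200 and 1.90 in BR100, against the fall of TRIB3, and CHAC2, a constitutive relative of CHAC1, rose by 1.44 and 1.82. TRIB1 was at −0.51 and −0.72, and SESN1, a relative of SESN2 induced by p53, at 0.02 and 0.01.

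**Figure D5:**
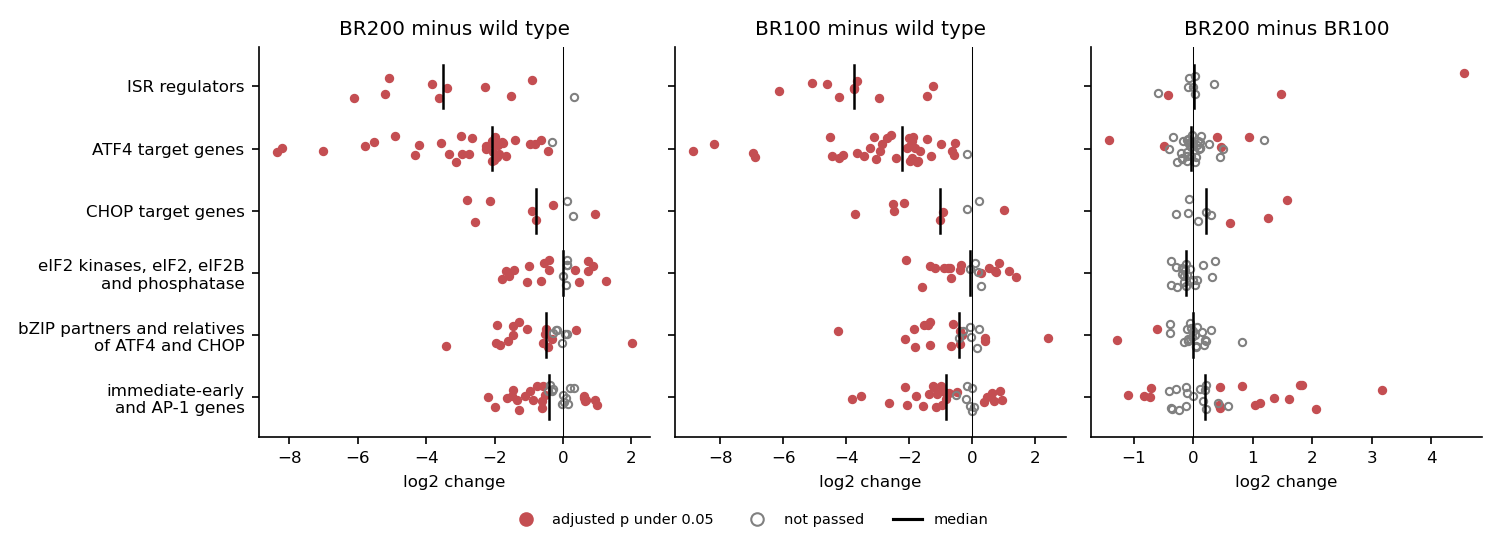
Log2 change of each tested gene in 6 lists, with 1 panel each for BR200 minus wild type, BR100 minus wild type and BR200 minus BR100; filled red points passed an adjusted p under 0.05, open grey points did not, and black bars mark medians. The ATF4 targets lie left of 0 beside the regulators in the first 2 panels (35 of 36 called lower in each), and in the third panel the immediate-early genes have 12 higher and 4 lower.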

How the data were processed

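Log2 expression values of 54675 probe sets on 6 arrays were deposited by the authors, made with GCRMA per the submitters' processing notes; its version is not given in the sources used here. Probe sets were named from the platform annotation (41097 name 1 gene, 1801 several and 11777 none, the last 2 kinds left out). Each gene took its probe set of highest mean, and genes with at least 2 arrays at log2 4 were kept (10370 of 19775). limma 3.58.1 in R 4.3.3 fitted variant and kit over all 6 arrays (2 residual degrees of freedom, 2.33 added by eBayes), two-sided. Kit numbers pair the arrays because the labels name the kit; kit differences correlated across genes between variants at r = 0.762 to 0.845. The members, lists and tests were chosen with earlier results of these data known. All 10 members were named, up to 4 called genes of each list with the largest change per comparison, fixed kinases and bZIP genes, and the 3 genes nearest ATF3, PPP1R15A and DDIT3. Tested on simulated data for BR100 against wild type (10370 genes, 200 changed), 75.7% of 1.5-fold, 96.7% of 2-fold and 100% of 4-fold changes were recovered, with 12.5 false calls on average. In the data 68.5% of tested genes were called in that comparison, so these figures need not carry over. BR200 against BR100 was not simulated. Alternatives changed the kit term, probe set choice, filter, scaling, variance prior and arrays. The number of arrays limits the precision.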

Additional observations from a re-analysis of the deposited data

Results flagged for a closer look

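For 3 members the change from wild type differed between the resistant variants, by the test of BR200 against BR100 in the same model; both changes use the same wild type arrays. The change in BR200 minus the change in BR100 was 4.56 for ATF3, 1.48 for PPP1R15A and −0.44 for CEBPG on the log2 scale (limma adjusted p = 0.00525, 0.0322 and 0.0392). ATF3 was close to wild type in BR200 and far below it in BR100, PPP1R15A was lower in both with the smaller fall in BR200, and CEBPG was lower in both with the larger fall in BR200. Each of these 3 calls rests on few arrays and depends on the settings. Without the kit term PPP1R15A and CEBPG were not called (limma adjusted p = 0.621 and 0.174), and with no filter on dim genes none of the 3 was.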

How the results depend on the processing

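Against wild type, all 137 member values in BR100 under the alternatives kept their direction and call. In BR200, PPP1R15A lost its call without the replicate block (adjusted p = 0.0981), and ATF3, still at 0.33, was called without either BR100 array (adjusted p = 0.0341). The calls between BR200 and BR100 moved most. Without the replicate block, which here is the kit, 4387 genes passed in BR100 (7102 with it), 4100 in BR200 (6901) and 112 between BR200 and BR100 (1102, 84.8% higher against 60.2%), with 1 of the 10 members. With no filter 15 genes passed (73.3% higher) and 0 members (4 at an unadjusted p under 0.05). A trended, robust variance prior gave 2254 genes. That prior, a filter at log2 6, quantile normalization and median centring each gave 5 members in place of 3, adding ATF4 and SESN2. Leaving out 1 array gave 5540 to 6606 genes in BR100, 5162 to 6457 in BR200 and 0 to 61 between them (unadjusted 1953 to 3273), with 10, 9 to 10 and 0 members called (4 to 5 at an unadjusted p under 0.05 in the last comparison). ATF3 was at 2.34 with its probe sets averaged. Uncalled values changed sign for DDIT3 (−0.012 with quantile normalization, −0.040 to 0.084 when 1 array was left out, the lowest without BR200 replicate 1) and CHAC1 (−0.17 with quantile normalization). Without shared probe sets (names ending in _x_at or _s_at) NUPR1 and SESN2 had none left, and ATF3 was not tested because its remaining ones were too dim for the filter. The cause of these shifts was not tested.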
